A study of Mus musculus with 4 samples.

Results

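The genes described here code for proteins of the basement membrane, the thin sheet of extracellular matrix on which epithelial, endothelial and endocrine cells rest. They are 10 of the 54532 genes in a count table of sorted mouse gonadotropes: the laminin chains Lama1, Lama5, Lamb1 and Lamc1, the collagen IV chains Col4a1 and Col4a2, the linkers Nid1 and Nid2, and the heparan sulfate proteoglycans Hspg2 and Agrn. Each symbol matched 1 row of the table. The list was drawn up knowing that Lama1, Col4a1 and Col4a2 were lower in the knockout, so the differences between the groups in these 10 genes are given as a description. No p-value is attached to a single member, and the counts of members past a threshold stand only beside the share of all genes.

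Laminins are cross-shaped trimers of an alpha, a beta and a gamma chain, and they form the first polymer at the cell surface. Collagen IV, a trimer of alpha chains, forms a covalently crosslinked second network that gives the sheet its strength. Nidogens and perlecan bridge both networks, and integrins and dystroglycan hold the sheet to the cell. In the anterior pituitary, basement membranes lie around the capillaries and around the cords of endocrine cells.

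Polyadenylated RNA was sequenced from gonadotropes, the cell type of the anterior pituitary that secretes the gonadotropins LH and FSH. They were purified by flow cytometry from male mice of 10 to 12 weeks and of a strain labelled Mixed, whereas the series' design text speaks of profiling whole pituitaries. The 4 libraries came from 2 control samples and 2 samples with a conditional knockout (cKO) of Gata2, a zinc-finger transcription factor gene. The title gives the knockout as gonadotrope-specific. The driver of the recombinase, the alleles of the controls and whether the samples of a group were separate animals or pools are details not given in the sources used here, nor is the purity of the sort. If the samples of a group were splits of the same animal or the same pool, p-values measure only a technical spread. With separate pools they measure the spread between pools.

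Total estimated counts per library ranged from 10646909 to 21135301. Levels are given in CPM, the reads of a gene per 1000000 of its library after TMM scaling. Gata2 itself had 537 and 526 CPM in control libraries against 221 and 214 CPM with the knockout, and its fall passed the test over all genes (log2 fold change -1.29, SE 0.14; adjusted p = 0.0473 by the quasi-likelihood test of edgeR). That call was lost under 2 of 14 alternative settings, a filter of 1 CPM in 2 libraries and the replicate number as a block, with its size kept (-1.33 to -1.28 over the 14). Gonadotrope markers were present in every library: their summed level over 8 genes was 15742 and 14237 CPM in control libraries against 7030 and 8441 CPM with the knockout. The log2 fold change was negative for all 8, and Fshb was the 1 that fell by the test. Cga and Lhb had the highest levels in that sum. The groups overlapped for Nr5a1 (277 and 397 CPM in control libraries against 275 and 372 CPM with the knockout). They also overlapped for Tgfbr3l (29.7 and 61.8 against 24.0 and 47.9 CPM). Markers of vessels and of connective tissue, which also make basement membrane, were low beside the gonadotrope sum. The endothelial sum was not low beside the collagen IV members. Col4a1 had 30.9 and 25.2 CPM in control libraries against 14.2 and 9.05 CPM with the knockout, and Col4a2 33.7 and 40.9 against 12.9 and 9.61. The 12 endothelial markers summed to 37.7 and 42.0 CPM in control libraries against 26.8 and 14.2 CPM with the knockout, with Emcn and Cldn5 at 0 counts in all libraries. By direction, 5 of the 9 endothelial markers tested had lower values in cKO and 4 higher, and 0 passed the test. Their highest members were Cdh5 (1.73, 18.2, 12.2 and 5.40 CPM, in the order control 1, control 2, cKO 1, cKO 2, which is kept throughout) and Pecam1 (15.8, 4.68, 3.73 and 3.85 CPM). The 12 fibroblast, pericyte and smooth muscle markers summed to 4.18, 22.1, 18.6 and 17.9 CPM, with Des at 0 in all libraries and Rgs5 and Col1a2 highest. Of them 2, 11, 3 and 5 had a count, and of the 4 tested, 2 had lower values in cKO and 2 higher. Pdgfra, Pdgfrb, Col3a1, Dcn and Lum had counts in control 2 only. So did Nid1 and genes of other lists, such as Lama2, S100b and Ptprc, so this trait was not particular to connective tissue markers. Other pituitary cell types were represented as well. The 8 genes of other endocrine cells summed to 8717, 12963, 9580 and 8927 CPM, above the gonadotrope sum in both cKO libraries, with Pomc highest (7161, 9813, 6032 and 7145 CPM) and Gh next (1124, 2375, 2149 and 385 CPM). Of these 8 genes, 3 had higher values in cKO and 5 lower, and 0 passed the test. Prl had 312, 583, 1249 and 1271 CPM and Pou1f1 3.91, 9.65, 21.0 and 19.6, higher in both cKO libraries (log2 fold changes 1.49, SE 0.27, and 1.57, SE 0.62). Tshb (22.3, 13.7, 7.33 and 7.08 CPM) and Ghrhr (8.64, 3.82, 0 and 0.0562 CPM) were lower in both. The 10 folliculostellate and stem cell markers summed to 98.5, 94.8, 127 and 142 CPM, with Aldh1a1 at 0 and Sox9 highest (24.4, 27.4, 58.0 and 73.0 CPM; log2 fold change 1.34, SE 0.28, which did not pass). Of the 8 tested, 3 had higher values in cKO and 5 lower. Aldh1a2 (22.4, 21.9, 8.30 and 16.6 CPM) and Vim (13.8, 12.3, 11.2 and 10.3 CPM) were lower in both cKO libraries. Macrophage and pituicyte markers summed to at most 24.8 and 15.4 CPM in any library, with C1qa, C1qb, C1qc, Nkx2-1, Rax and Lhx2 at 0 in all. In bulk samples, fewer cells of a type and less RNA per cell cannot be told apart, and the part of other cells in the values that follow was not tested.

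Laminin was the most abundant component at the RNA level. Per kilobase of exon, the alpha chain gene Lama1 stood first in the controls, at 45.1 ± 9.07 CPM per kilobase (SD, n = 2). The gamma chain gene Lamc1 was next at 21.7 ± 1.04, then the beta chain gene Lamb1 at 10.1 ± 3.62. Agrn followed at 6.85 ± 0.0567, Lama5 at 6.20 ± 0.508, Col4a2 at 5.64 ± 0.761 and Col4a1 at 3.76 ± 0.543. Hspg2, at 0.603 ± 0.367, Nid1 and Nid2 were far below. Neighbours in this order did not overlap between the 2 controls, except Lama5 with Col4a2 and the last 3 genes with each other. In the cKO libraries Lamc1 stood first at 19.8 ± 4.79, followed by Lama1 at 12.5 ± 3.48 and Lama5 at 10.9 ± 1.64.

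**Figure D1:**
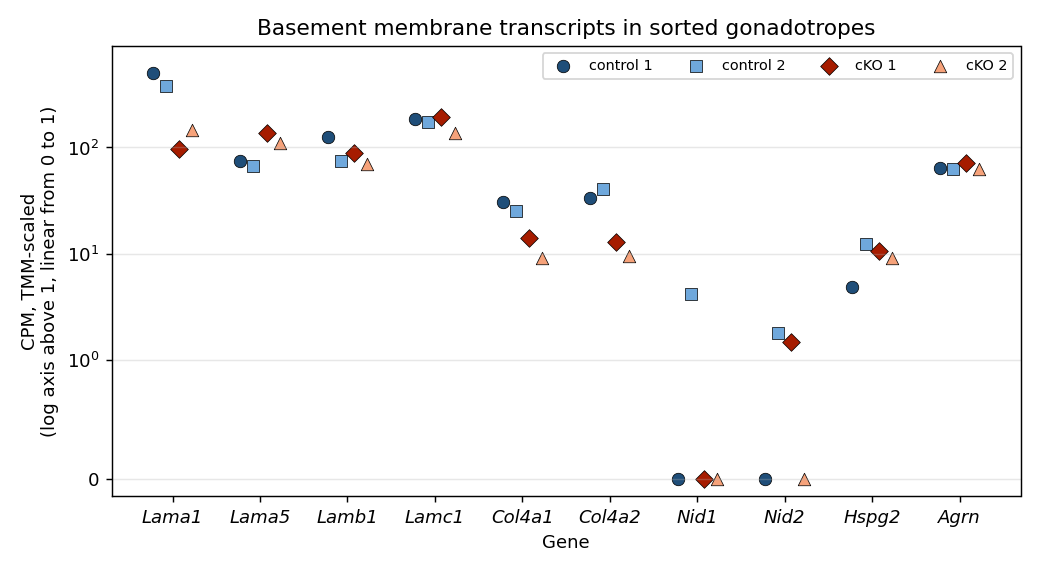
Level of each of the 10 genes in each library, in TMM-scaled CPM on an axis that is logarithmic above 1 and linear below. Symbols are single libraries. Both cKO libraries lie below both controls for Lama1, Col4a1 and Col4a2 and above them for Lama5, and Nid1 and Nid2 have no count in some libraries.

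Both cKO libraries lay below both controls for 3 of the 10 genes and above them for 1. Among all 17349 genes tested, 19.3% lay below and 19.7% above in the same way. In the fit over all genes 0 of the 9 tested members passed an adjusted p of 0.05 by edgeR, beside 0.0576% of all genes (0.0461% lower in cKO and 0.0115% higher). Without adjustment, 3 of 9 were lower at an edgeR p under 0.05 and 1 higher, beside 7.04% of all genes (3.88% lower and 3.15% higher). DESeq2 called 4 of the 9, 3 lower and 1 higher, beside 5.44% of all genes (3.0% lower and 2.43% higher). Limma-voom called 2, both lower, beside 1.48% of all genes (0.692% lower and 0.784% higher). These shares describe a list chosen with this contrast in view, and nothing is read from them. The median log2 fold change of the 9 was -0.30, beside 0.03 over all genes tested. That median is the value of Nid2, a gene with 0 counts in 2 libraries, and it moved to -1.06 without cKO replicate 1, -0.72 without control replicate 1, -0.18 without control replicate 2 and -0.05 without cKO replicate 2. Nid1 was the 1 member that did not pass the filter on low counts.

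Lama1 codes for the laminin alpha chain typical of embryonic and epithelial basement membranes, and lies on chromosome 17 (67697259 to 67822647, mm10, ENSMUSG00000032796.8). Control libraries held 5488 and 7843 counts of it and cKO libraries 1507 and 2572, or 499 and 375 against 96.9 and 145 CPM. The groups were well apart, with the higher cKO library below the lower control by more than the distance between replicates. The log2 fold change (cKO minus control, throughout) was -1.85 (SE 0.24), which left 27.6% of the control level. Of the 10 genes Lama1 had the most counts in both controls and in cKO 2, and in cKO 1 Lamc1 and Lama5 had more. Across the 14 alternative settings its log2 fold change ranged from -2.18 to -1.60.

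Lama5, for the alpha chain that is widespread in adult epithelia and vessels, had values in the other direction. This gene on chromosome 2 (180176373 to 180225859, ENSMUSG00000015647.9) had 74.7 and 66.6 CPM in control libraries against 137 and 110 CPM with the knockout. The groups did not overlap, and the log2 fold change was 0.81 (SE 0.21), a level 1.75 times that of the controls. Of the summed CPM per kilobase of the 5 laminin alpha chain genes, Lama1 made up 87.5% and 85.3% in control libraries against 44.7% and 59.4% with the knockout. Lama5 made up 11.1% and 12.9%, then 53.6% and 38.5%. The ratio of Lama5 to Lama1 was therefore 0.127 and 0.151 in the controls and 1.20 and 0.649 in cKO. The sum over the alpha chains was lower in cKO, at 22.4 and 25.2 CPM per kilobase against 58.9 and 45.4. Each of the remaining alpha chain genes, Lama2, Lama3 and Lama4, gave at most 1.68% of that sum in any library.

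**Figure D2:**
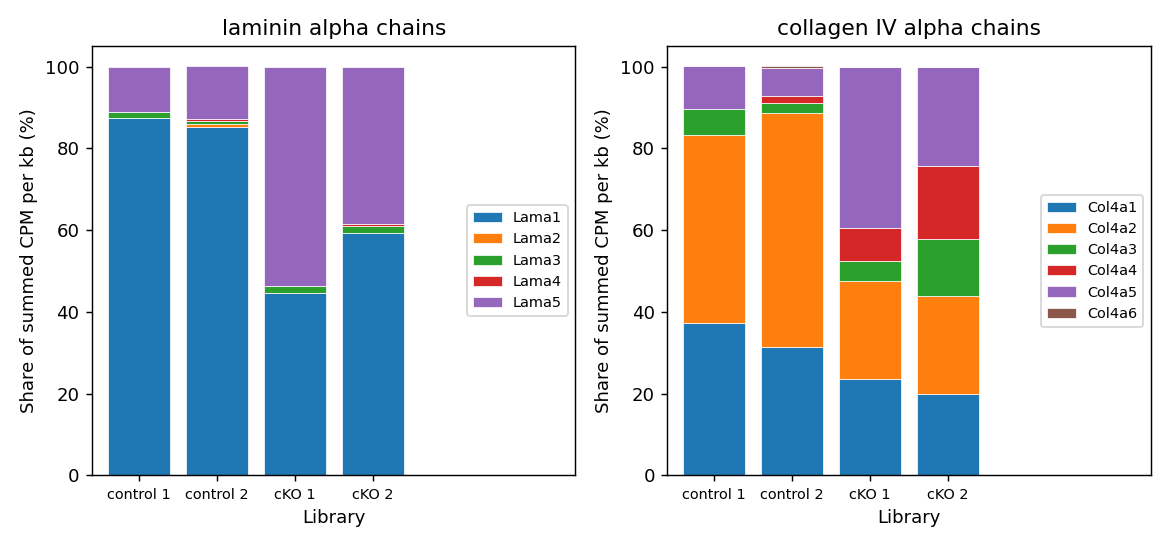
Share of each chain gene in the summed CPM per kilobase of exon of its family, in percent, for the laminin alpha chains (left) and the collagen IV alpha chains (right); each bar is 1 library. Lama1 holds 87.5% and 85.3% of the laminin alpha sum in control libraries against 44.7% and 59.4% with the knockout, and the shares of Col4a1 and Col4a2 are smaller in both cKO libraries than in either control.

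The partner chains of Lama1 did not share its separation. Lamb1, for the most common beta chain (chromosome 12, 31265234 to 31329644, ENSMUSG00000002900.16), had 125, 74.4, 88.4 and 69.8 CPM. The controls differed more from each other than the group means did, and the log2 fold change was -0.33 (SE 0.29). Lamc1, for the gamma chain found in most laminins (chromosome 1, 153218922 to 153332786, ENSMUSG00000026478.14), had 186, 174, 192 and 136 CPM, with 1 cKO library above and 1 below both controls. Its log2 fold change was -0.13 (SE 0.21). The ratio of Lamb1 to Lamc1 per kilobase was 0.562 and 0.357 in the controls and 0.383 and 0.428 in cKO, so the groups overlapped. This ratio depends on the length taken for Lamb1, whose merged exons span 9917 bases and whose longest annotated transcript is 5784.

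Col4a1 and Col4a2 code for the alpha chains of the collagen IV trimer found in nearly all basement membranes. They lie head to head on chromosome 8, Col4a1 on the minus strand (11198423 to 11312826, ENSMUSG00000031502.11) and Col4a2 on the plus strand (11312805 to 11449287, ENSMUSG00000031503.13). Their first exons share 22 bases on opposite strands, and whether counting used strand is unknown, so a read there cannot be assigned with certainty. The start regions of both genes are shown because this pair had lower values in cKO together. They come from RefSeq on GRCm38.p6 and run from 250 bases before to 50 bases after each gene's annotated start (Col4a1 minus strand, chr8:11312777-11313076; Col4a2 plus strand, chr8:11312555-11312854). Capitals mark the 78 bases that both windows contain, as reverse complements of each other.
Col4a1: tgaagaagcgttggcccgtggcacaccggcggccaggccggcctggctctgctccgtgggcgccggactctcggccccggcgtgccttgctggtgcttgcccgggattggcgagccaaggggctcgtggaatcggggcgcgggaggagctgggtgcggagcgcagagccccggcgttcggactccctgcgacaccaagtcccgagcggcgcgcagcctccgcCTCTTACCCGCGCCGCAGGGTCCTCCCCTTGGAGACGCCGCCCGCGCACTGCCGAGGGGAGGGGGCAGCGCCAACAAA
Col4a2: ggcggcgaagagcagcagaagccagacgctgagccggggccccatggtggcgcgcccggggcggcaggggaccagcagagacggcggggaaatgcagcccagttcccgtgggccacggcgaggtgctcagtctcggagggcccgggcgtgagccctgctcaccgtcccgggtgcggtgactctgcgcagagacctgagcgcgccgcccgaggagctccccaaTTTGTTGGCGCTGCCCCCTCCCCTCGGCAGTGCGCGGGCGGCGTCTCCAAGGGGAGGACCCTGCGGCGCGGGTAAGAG
The annotated starts are 21 bases apart. Base composition was similar in both windows, at 74.0% and 73.7% G or C, beside a median of 52.7% over all 32851 windows of that length. A GC box (GGGCGG, either strand) lay between the 2 starts and so in both windows, and the Col4a2 window held 2 more. Each window also held 1 CCAAT box (CCAAT, either strand), at different places. Of all windows 35.7% held a GC box and 37.4% a CCAAT box. Neither window held a GATA motif (AGATAA with its variant ending AG, AGATAG, and the pair with a first T, TGATAA as well as its variant ending AG, TGATAG; either strand), which 29.8% of all windows held, or TATAAA, which 13.6% held. A match of letters is a description and not a site of binding, and the shares of all windows take no account of base composition.

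**Figure D3:**
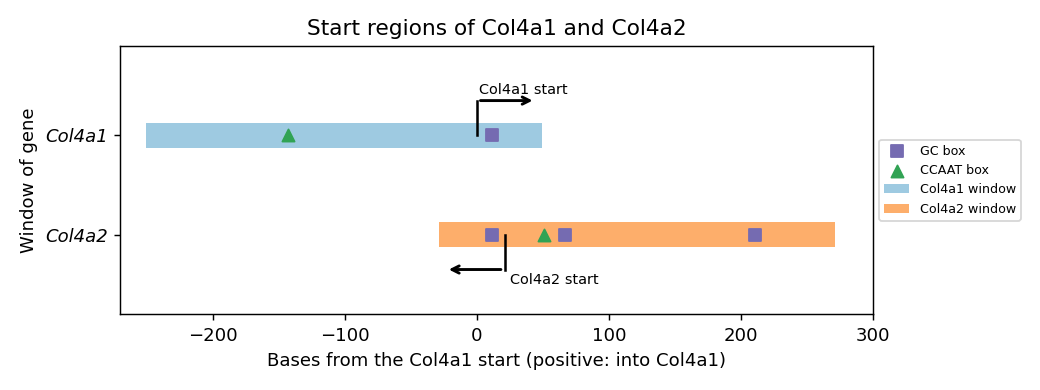
Windows around the starts of Col4a1 (top) and Col4a2 (bottom), by distance in bases from the Col4a1 start; arrows show the direction of transcription, squares GC boxes and triangles CCAAT boxes. The transcripts run in opposite directions and overlap by 22 bases at their starts, and 1 GC box falls in the stretch both windows share.

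Control libraries held 340 and 527 counts of Col4a1 and cKO libraries 221 and 161, or 30.9 and 25.2 against 14.2 and 9.05 CPM. Both cKO libraries were below both controls, with a log2 fold change of -1.27 (SE 0.45), or 41.5% of the control level. Col4a2 had 371 and 855 counts, then 200 and 171, which is 33.7 and 40.9 CPM against 12.9 and 9.61. The gap between the groups was wider than for Col4a1, and the log2 fold change was -1.73 (SE 0.39), or 30.1% of the control level. The standard errors of this pair are larger than that of Lama1, which had 6.82 to 16.1 times as many counts as either gene in each library. The alternative settings gave -1.63 to -0.99 for Col4a1 and -1.96 to -1.55 for Col4a2. The ratio of Col4a2 to Col4a1 per kilobase was 1.23 and 1.83 in the controls and 1.02 and 1.20 in cKO, lower in cKO in both libraries but by less than the distance between the controls. 

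The other collagen IV chains make separate trimers with a narrower tissue distribution. They were below Col4a1 and Col4a2 per kilobase in the controls. In cKO 1 Col4a5 was the highest of the 6 chain genes, at 3.20 CPM per kilobase against 1.94 for Col4a2. In cKO 2 Col4a5 and Col4a2 were nearly level, at 1.48 and 1.45 CPM per kilobase on 177 and 171 counts. Col4a5 had 7.82, 4.97, 21.5 and 9.95 CPM, higher in both cKO libraries (log2 fold change 1.30, SE 0.68; edgeR gave an adjusted p of 0.777). Col4a4 had 0, 1.77, 6.88 and 11.4 CPM, and Col4a3 7.00, 2.77, 3.92 and 8.37. Neither passed the test over all genes. Together, Col4a1 and Col4a2 made up 83.2% and 88.6% of the summed collagen IV level per kilobase in the controls and 47.6% and 44.0% in cKO.

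The linkers and proteoglycans showed no such separation. Agrn, for agrin, which gathers dystroglycan and acetylcholine receptors at the cell surface, lies on chromosome 4 (156165290 to 156197488, ENSMUSG00000041936.18). It had 64.0, 63.3, 72.1 and 63.2 CPM, nearly the same in every library, and a log2 fold change of 0.09 (SE 0.22). Hspg2, for perlecan, lies on the same chromosome (137468769 to 137570630, ENSMUSG00000028763.17) and had 4.91, 12.3, 10.6 and 9.16 CPM. The controls lay on either side of the cKO libraries, and the log2 fold change was 0.19 (SE 0.74). Hspg2 rested on 54 to 258 counts spread over 14307 bases of exon, and leaving out control replicate 1 gave -0.33 and leaving out control replicate 2 gave 1.01.

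The nidogens were at the limit of detection. Nid1 (chromosome 13, 13437551 to 13512269, ENSMUSG00000005397.8) had 88 counts in control 2, or 4.21 CPM, and 0 counts in the other libraries. Nid2 (chromosome 14, 19751265 to 19811787, ENSMUSG00000021806.4) had 38 counts in control 2 and 23 in cKO 1, or 1.82 and 1.48 CPM, and 0 in the other libraries. A count of 0 allows up to 0.273 CPM in control 1, 0.193 in cKO 1 and 0.169 in cKO 2, by counting error only. Nid2 shares 437 bases of exon with Rtraf on the other strand, which had 627 to 1256 counts. Whether counting used strand is unknown, so a read in that stretch cannot be assigned with certainty. The value of Nid1 in control 2 lay above these bounds. Control 2 also had the most genes with a count (21824, against 15425 in control 1, 17624 in cKO 1 and 18499 in cKO 2), and the reason was not tested. With 0 counts in 1 library of each group or more, no difference could be read for either gene. The fitted value of Nid2 (-0.30, SE 3.57) ranged from -6.93 to 6.47 when 1 library was left out.

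**Figure D4:**
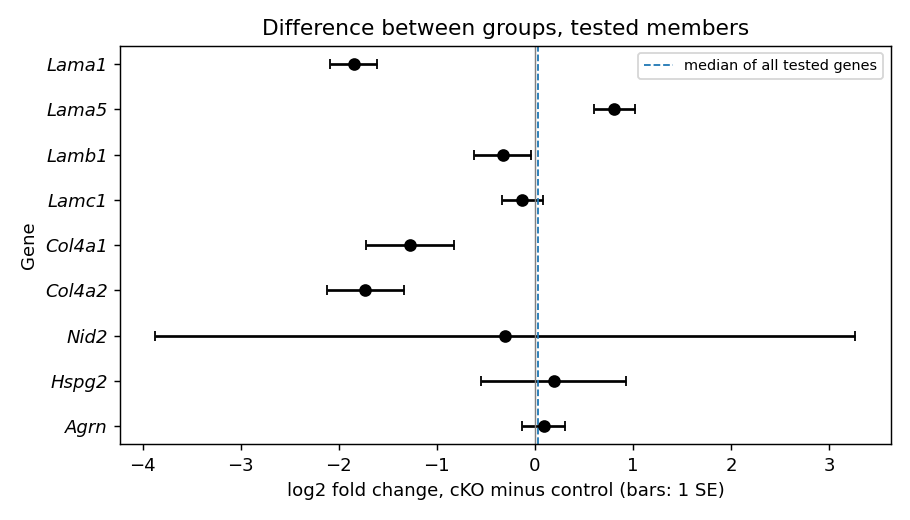
Log2 fold change (cKO minus control) of the 9 members that passed the filter on low counts, with bars of 1 SE; the dashed line is the median of all tested genes, 0.03. Lama1, Col4a2 and Col4a1 lie between -1.85 and -1.27, Lama5 at 0.81, and Lamb1, Lamc1, Hspg2 and Agrn between -0.33 and 0.19.

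Genes that work with these proteins were examined in 4 lists grouped by function, with 97 of 109 members tested. By edgeR 0 passed over all genes. Without adjustment 15 had a p under 0.05, of which 10 were lower in cKO and 5 higher, or 15.5% beside 7.04% of all genes. DESeq2 called 13 of the 97 (8 lower, 5 higher), or 13.4% beside 5.44% of all genes (3.0% lower and 2.43% higher). Limma-voom called 5 (3 lower, 2 higher), or 5.15% beside 1.48% of all genes (0.692% lower and 0.784% higher). Both cKO libraries lay below both controls for 22 of the 97 and above them for 23, beside 19.3% and 19.7% of all genes. The lists were chosen with earlier results of these data known, so nothing is read from these shares.

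Among receptors and surface partners, 14 of 20 tested genes had lower values in cKO and 6 higher. Their median log2 fold change was -0.19, beside 0.03 over all genes tested. Both cKO libraries lay below both controls for 6 of the 20 and above them for 4. Dag1, for dystroglycan, the receptor of laminin, perlecan and agrin, had 293 and 271 CPM in control libraries against 156 and 190 CPM with the knockout. The groups did not overlap (log2 fold change -0.71, SE 0.17; adjusted p = 0.474 by edgeR). Itga2, for a subunit of a collagen-binding integrin, had 29.5, 25.8, 10.6 and 6.07 CPM (log2 fold change -1.73, SE 0.49; adjusted p = 0.567 by edgeR). Bcam, for a receptor of the Lama5 chain, had 71.0, 69.3, 31.8 and 47.0 CPM, lower in both cKO libraries, while Lama5 was higher in the same libraries. Sdc3, for the proteoglycan syndecan 3, was higher in both, with 97.0, 96.1, 201 and 147 CPM (log2 fold change 0.85, SE 0.21). 

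Among genes of biosynthesis, crosslinking and export, 17 of 32 tested members were lower and 15 higher, with a median of -0.03. Pxdn, for peroxidasin, the enzyme that crosslinks collagen IV, had 46.7 and 56.7 CPM in control libraries against 111 and 100.0 CPM with the knockout. The log2 fold change was 1.02 (SE 0.22; adjusted p = 0.385 by edgeR), so that this enzyme's transcript had higher values in the libraries where Col4a1 and Col4a2 were lower. Plod2, for a collagen lysyl hydroxylase, had 59.0, 90.2, 123 and 134 CPM (log2 fold change 0.78, SE 0.25). P4hb, for protein disulfide isomerase, which is also the beta subunit of prolyl hydroxylase, had 556, 492, 351 and 421 CPM (log2 fold change -0.44, SE 0.16).

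**Figure D5:**
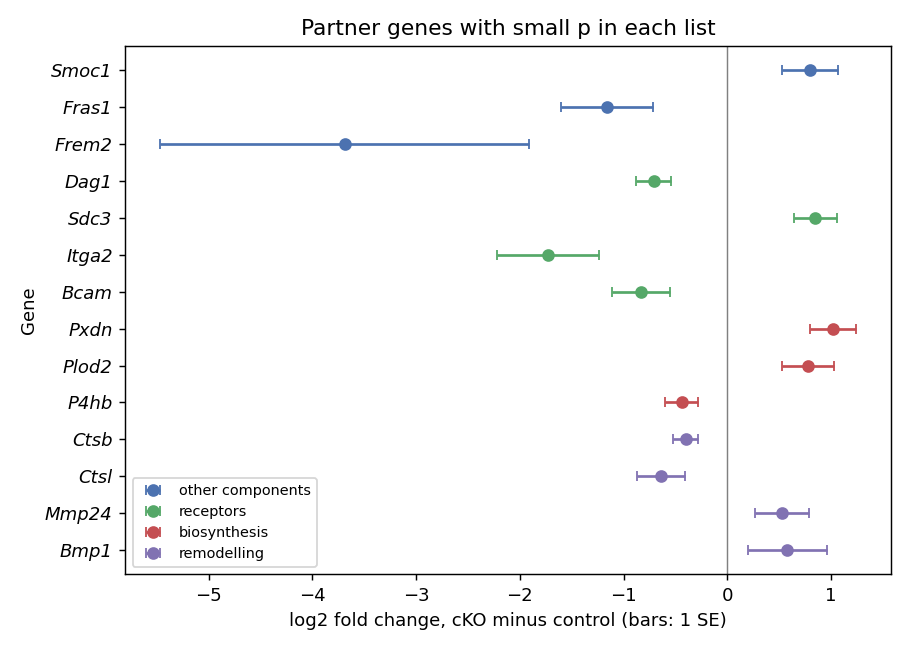
Log2 fold change (cKO minus control) of up to 4 genes with the smallest p in each of the 4 lists of partner genes, with bars of 1 SE. None passed the threshold over all genes by edgeR; Pxdn, at 1.02, has the highest value and Frem2, at -3.69, the lowest.

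Among other components of the basement membrane, 10 of 23 tested genes were lower and 13 higher, with a median of 0.33. Fras1 and Frem2, which code for proteins of 1 complex beneath epithelia, both had lower values in cKO. Fras1 had 45.9, 64.3, 14.9 and 34.3 CPM (log2 fold change -1.16, SE 0.44) and Frem2 13.6, 9.61, 1.80 and 0 (-3.69, SE 1.78). Smoc1, for a calcium-binding matrix protein, had 31.2, 35.7, 60.8 and 56.1 CPM. None of these passed over all genes by edgeR (adjusted p 0.642 to 0.741).

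Among proteases and their inhibitors, 10 of 22 tested genes were lower and 12 higher, with a median of 0.10. The lysosomal proteases Ctsb (844, 796, 618 and 627 CPM) and Ctsl (266, 285, 138 and 216 CPM) had lower values in both cKO libraries. Mmp24, for a membrane-bound metalloproteinase, had 39.1, 51.2, 65.8 and 64.5 CPM, and Bmp1, for the protease that trims procollagens and laminins, 21.8, 43.0, 52.4 and 44.5. Their edgeR adjusted p ranged from 0.608 to 0.895.

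The genes whose levels followed the same course over the 4 libraries were found by the distance between log2 CPM profiles centred on each gene's mean, among 11619 genes. Nearest to Lama1 were Inhbb (distance 0.071), for the beta B subunit of inhibins and activins, then Fshb, for the FSH beta subunit (0.19), and Ccdc8 (0.20). Inhbb had 187, 148, 36.0 and 53.8 CPM, with control 1 highest and cKO 1 lowest as for Lama1. Nearest to Col4a1 were Nlrc3 (0.058), Tpgs2 (0.11) and Gnpda1 (0.17), and nearest to Col4a2 were Osmr (0.15), Enc1 (0.24) and Colec12 (0.31). Col4a1 and Col4a2 stood 0.61 apart. By nearness, Col4a2 had rank 253 for Col4a1, and Col4a1 had rank 46 for Col4a2. Control 1 was the higher control for Col4a1 and the lower for Col4a2. Lama1, Col4a1 and Col4a2 entered the list as lower in cKO, and the distances use the same 4 libraries. Genes with a fall of similar size in cKO therefore come out nearest, whatever their function. Such distances describe these samples only, and no link between genes is read from them.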

How the data were processed

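Gene-level estimated counts were deposited by the authors for 4 libraries, with no scaling, and 4.50% of values in that table are fractional. Alignment to mm10 used STAR (2.5.1b) and counting used featureCounts (1.5.0-p1), per the submitters' processing notes; annotation and strand settings were not given in the sources used here. Names, positions and exon lengths came from GENCODE M21 (54495 of 54532 identifiers matched without version). Counts were rounded, filtered with filterByExpr (minimum count 10, minimum total 15), TMM-scaled and tested with the two-sided quasi-likelihood test of edgeR 4.0.16 (R 4.3.3), group being the only term, Benjamini-Hochberg adjusted over 17349 genes, with a threshold of 0.05. The SE of a log2 fold change is its size over the square root of F. Levels between genes are CPM per kilobase of merged exons. DESeq2 1.42.0 and limma-voom (limma 3.58.1) were alternatives, with other scalings, filters, a replicate block and each library left out. The members and lists were chosen with earlier results of these data known. Partner genes named are up to 4 with the smallest p of each list, and some that this rule names are not reported here; for Lama1, Col4a1 and Col4a2 the 3 genes with the nearest profiles were named (average log2 CPM of at least 2, with a symbol, prior of 0.5 CPM). From the cell type lists up to 2 genes with the highest level were named. Other genes named, such as Col4a3 to Col4a5, Prl and Pou1f1, were chosen after their values were seen.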

Additional observations from a re-analysis of the deposited data

How the results depend on the processing

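The count of 10 genes past the threshold became 253 without a filter, 943 with DESeq2, 3 with a filter of 1 CPM in 2 libraries, 256 with limma-voom, 47 with edgeR's newer quasi-likelihood method and 66 to 681 with 1 library left out. The count of partner genes, 0, became 3, 13 and 5 without a filter, with DESeq2 and with limma-voom, and 0 to 6 with 1 library left out (6 without control replicate 2). The median of the members was -1.06 to -0.05 with 1 library left out, and kept to within 1 SD of -0.30 otherwise. With the length of the longest transcript the ratio of Lamb1 to Lamc1 was 0.726 in controls and 0.641 in cKO, in place of 0.459 and 0.406, and that of Lamb2 to Lamb1 in cKO 0.0384 in place of 0.0610, since Lamb1 is then shorter. The cause of the other shifts was not tested.

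The count of members past the threshold, 0, became 2 without a filter, 4 with DESeq2, 2 with limma-voom, 1 with the newer method and 1 with each library left out. The members were chosen with this contrast in view, so neither these counts nor the directions of Lama1, Col4a1 and Col4a2 support a difference. Lamb1, Lamc1, Hspg2 and Agrn each had the other sign in 1 of 14, and Nid2 in 2. The replicate block gave 7 genes in all and 0 members or partner genes; samples with the same number did not deviate together (Pearson's r of their deviations from the group means was -0.0105 over 17349 genes). The ratio of Nid1 to Nid2 could not be formed in libraries with no Nid2 count. Fits with 1 library in a group assume that it varies like the other group. Values of genes under 100 counts, such as both nidogens, rest on few reads.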

Other observations

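RefSeq start windows of the same length were found for 7 of the 10 genes, 8 windows in all, with none for Lama1, Lamc1 and Nid2. A GC box lay in all 8 and a CCAAT box in 4, those of Col4a1, Col4a2, Lamb1 and Nid1. A GATA motif or TATAAA lay in 0 of the 8. The same letters were found in 35.7%, 37.4%, 29.8% and 13.6% of all windows. These shares take no account of base composition. The windows of Col4a1 and Col4a2 share 78 bases and Agrn enters with more than 1 start, so nothing is read from the contrast.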
